A study of Mus musculus with 4 samples.

Results

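The genes described are 9 genes of pre-B and B cells, read in RNA of erythroblasts, the nucleated precursors of red cells. They are Vpreb1, Vpreb3, Igll1, Rag1, Ebf1, Pax5, Cd79a, Cd79b and Ms4a1, ordered from early pre-B to mature B cells. Each was represented by the array probe set annotated to its symbol alone, the one with the highest mean over the 4 arrays if there were several, and each of the 9 had exactly 1 such probe set. They are 9 of the 19938 genes represented in this way. The mice were Parp-2-/- (knockout, 2 arrays), lacking the DNA-damage-dependent poly(ADP-ribose) polymerase PARP2, or wild type (2 arrays), all on a C57BL/6 background. The RNA came from bone marrow cells sorted for Ter119 and CD71, the transferrin receptor, and 100 ng per sample was labelled for Affymetrix whole-transcript arrays. The labels give neither the age of the mice nor whether each array stands for 1 animal, and the allele is not described beyond the genotype. All values are the deposited log2 expression values, on which a difference of 1 is a 2-fold change. The series title places the study in red cell production, where B cell genes are markers of another lineage.

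B cells arise in the bone marrow. The transcription factors EBF1 and PAX5 set up and maintain the B lineage programme, and RAG1 cuts DNA to assemble immunoglobulin genes. In pre-B cells the new heavy chain is displayed with a surrogate light chain made of VpreB and lambda 5, the product of Igll1. CD79A and CD79B carry its signal, and Ms4a1 encodes CD20, a surface protein of later B cells. Erythroblasts belong to another lineage and are not known as a site of this programme.

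Sequences are shown for a selection, the surrogate light chain genes and Cd79a, which lie in the same direction in the data. Vpreb1 has a near copy, Vpreb2, that does not lie in that direction. Rag1 and Ebf1 lie in it too, and their sequences are not shown. Upstream sequences come from RefSeq, build GRCm38.p6, which had entries for 7 of the 9 genes (8 windows, as Ebf1 has 2). No entry matched Cd79b or Ms4a1. Over the last 106 bases before the start of Vpreb1, 104 are the same in Vpreb2 (98.1%), where the stretch ends 145 bases before the annotated start. Only the 250 bases before each start were compared, so the windows bound the stretch and its full extent was not examined. Capitals mark the bases that differ.

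Vpreb1, chr16:16869256-16869361, minus strand: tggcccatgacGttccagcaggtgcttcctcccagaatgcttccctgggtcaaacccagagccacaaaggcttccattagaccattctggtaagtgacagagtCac

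Vpreb2, chr16:17980315-17980420, plus strand: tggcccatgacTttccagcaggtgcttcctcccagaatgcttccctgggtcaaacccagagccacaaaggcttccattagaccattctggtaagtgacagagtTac

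In the next 3 sequences, each the 250 bases before the annotated start and written 5′ to 3′, capitals mark matches on either strand to 3 motifs of B cell factors. These are the E-box CANCTG bound by E proteins, the core CCCNNGGG bound by EBF1, and the octamer ATTTGCAT; none of the marked matches overlap. The E-box letters occurred in 5 of the 8 windows of the B cell genes, against 44.8% of all 32851 RefSeq windows of the same length. The EBF core occurred in 1 of the 8 (Igll1), against 11.8% of all windows, and the octamer in 1 of the 8 (Vpreb3), against 1.6%. Among the windows not shown, those of Ebf1 and Pax5 held no match to the 3 motifs, and that of Rag1 held E-box matches alone. A match describes letters and is not evidence of binding.

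Igll1, chr16:16863986-16864235, minus strand: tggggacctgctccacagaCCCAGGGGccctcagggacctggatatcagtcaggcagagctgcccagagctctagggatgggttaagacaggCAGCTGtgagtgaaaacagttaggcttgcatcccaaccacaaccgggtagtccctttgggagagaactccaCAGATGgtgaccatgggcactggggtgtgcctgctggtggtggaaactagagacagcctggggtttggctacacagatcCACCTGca

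Vpreb3, chr10:75948050-75948299, plus strand: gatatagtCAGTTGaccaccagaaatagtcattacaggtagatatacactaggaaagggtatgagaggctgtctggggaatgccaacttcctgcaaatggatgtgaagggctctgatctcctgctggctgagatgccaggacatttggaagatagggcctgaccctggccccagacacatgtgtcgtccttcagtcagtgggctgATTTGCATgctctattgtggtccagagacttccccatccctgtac

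Cd79a, chr7:24897247-24897496, plus strand: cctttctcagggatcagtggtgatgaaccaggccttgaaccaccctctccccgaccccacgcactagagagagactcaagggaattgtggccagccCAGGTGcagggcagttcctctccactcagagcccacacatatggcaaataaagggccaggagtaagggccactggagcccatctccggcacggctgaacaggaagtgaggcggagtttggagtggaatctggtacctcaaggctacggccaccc

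The targeted gene was read first. Parp2 (probe set 10414497) stood at 7.11 and 6.70 on the knockout arrays, against 8.24 and 7.65 on the wild type arrays. Both knockout arrays were lower, with a change of -1.04 ± 0.40 (SE, n = 2 arrays each), but the limma test over all probe sets was not passed (adjusted p = 0.9999). Here and below, SE is the moderated standard error of limma, which draws on the spread of all annotated probe sets. The transferrin receptor gene Tfrc, whose protein was used in the sort, was at 10.65 and 11.39 in the knockout and 10.35 and 11.43 in wild type. The 8 measured erythroblast markers had a median difference of +0.06, with 0 of them separating the genotypes. Over all genes, 9.62% lay below wild type on both knockout arrays and 16.4% lay above. The arrays differed in spread, since the interquartile range of all annotated probe sets was 1.98 on knockout replicate 2 and 2.62 to 2.94 on the other arrays.

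As a set, the B cell genes were lower in the knockout. Of the 9, 8 had a lower mean, and Pax5 was the exception. Their median difference was -1.40 on the log2 scale, against a median of +0.08 over all 19938 genes. A lower mean was found for 41.5% of all genes. For 7 of the 9 the higher knockout array was still below the lower wild type array, which held for 9.62% of all genes. An unadjusted limma p under 0.05 with a lower mean was reached by 5 of the 9 (Vpreb1, Igll1, Ebf1, Cd79b and Ms4a1), against 1.76% of all genes. These genes, and the lists below, were chosen with earlier results of these data known. The counts beside the shares of all genes are therefore a description and not a test. None of the 9 passed limma with adjustment over all probe sets (adjusted p = 0.9999 for each), where 0 of 23410 probe sets, or 0%, were called, and 486 had an unadjusted p under 0.05. In bulk samples, fewer cells of a type and less RNA per cell cannot be told apart.

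**Figure D1:**
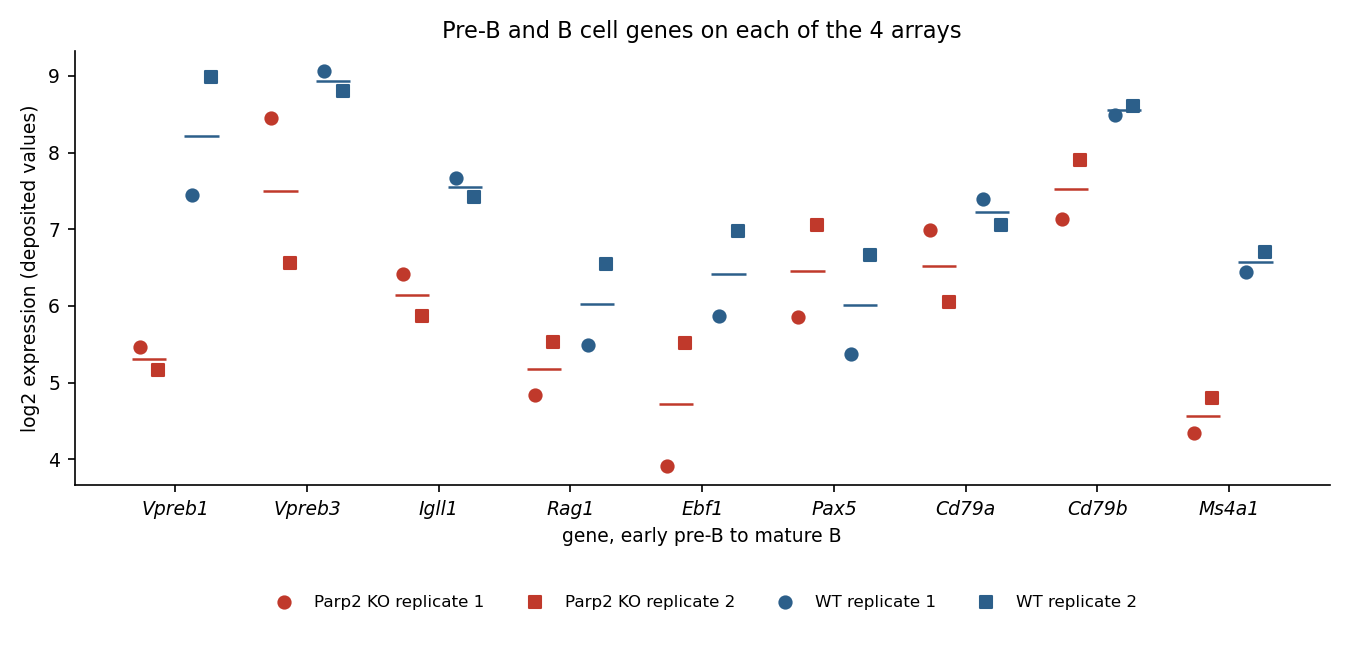
Log2 expression of the 9 genes (x axis) on each array, with knockout arrays in red and wild type arrays in blue, circles for replicate 1, squares for replicate 2 and lines for group means. The red points lie below the blue ones for 7 genes and are mixed with them for Rag1 and Pax5.

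The surrogate light chain genes were read next. Vpreb1, which encodes its variable-like part, stood at 5.46 and 5.17 on the knockout arrays, against 7.45 and 8.99 on the wild type arrays. The gap between the groups was wider than either pair of replicates, and the wild type pair was itself 1.54 apart. The difference was -2.90 ± 0.55 (SE, n = 2 arrays each; 95% interval -4.21 to -1.59), a 7.48-fold lower level. By unadjusted p (0.00128, limma) Vpreb1 ranked 13 among the 19938 genes. Without wild type replicate 1 the difference was -3.67 and passed limma (adjusted p = 0.00494), and with each of the other arrays left out it did not pass. That fit keeps 1 wild type array, assumed to vary like the knockout pair, and gives all probe sets the same SE of 0.737.

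Igll1, which encodes the constant-like part lambda 5, read 6.42 and 5.87 in the knockout and 7.66 and 7.43 in wild type. Its wild type replicates lay closer together than those of Vpreb1, and the groups did not overlap. The level was 2.64-fold lower, at -1.40 ± 0.39 (SE, n = 2 arrays each), with a 95% interval of -2.32 to -0.48. Igll1 and Vpreb1 both lie on the minus strand of chromosome 16, where the sequences shown above cover 16863986-16864235 and 16869256-16869361. Vpreb3, whose product binds immunoglobulin chains inside B cell precursors, read 8.45 and 6.56 in the knockout and 9.07 and 8.81 in wild type. Here knockout replicate 1 lay close to wild type and knockout replicate 2 far below. The difference of -1.44 ± 0.63 (SE, n = 2 arrays each) had an interval that reached 0 (-2.93 to 0.05). It was -2.38 without knockout replicate 1 and -0.49 without knockout replicate 2.

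Vpreb2, the near copy of Vpreb1 shown above, was not lower. It read 5.97 and 6.64 in the knockout and 5.86 and 6.25 in wild type, with overlapping groups. The difference was +0.25 ± 0.41 (SE, n = 2 arrays each; 95% interval -0.72 to 1.22), an interval that lies wholly above that of Vpreb1. How far each probe set also picks up the other copy was not analysed here, so the split of signal between the copies is uncertain.

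Rag1, the recombinase subunit that cuts DNA, read 4.84 and 5.52 in the knockout and 5.49 and 6.55 in wild type. Knockout replicate 2 and wild type replicate 1 were almost level, so the groups overlapped by a narrow margin. The difference was -0.84 ± 0.49 (SE, n = 2 arrays each). It was -0.50 without knockout replicate 1 and -1.37 without wild type replicate 1. Dropping wild type replicate 2 left -0.305. Its partner Rag2 read 3.73 and 3.81 in the knockout and 4.35 and 4.21 in wild type, without overlap, a difference of -0.51. Dntt, which adds bases at the joints, read 5.07 and 5.05 in the knockout and 6.28 and 5.44 in wild type, a difference of -0.80. Both recombination partners thus had the same sign as Rag1, each with a limma p above 0.05 before adjustment. Rag2 was dim, below the median probe set mean of 5.357 on every array, and whether it was detected could not be judged. Both knockout values of Ms4a1, and 1 knockout value each of Vpreb1, Rag1 and Ebf1, also lay below 5.357. Whether these were detected could not be judged either.

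The transcription factors went different ways. Ebf1, an early determinant of the B lineage, read 3.92 and 5.52 in the knockout and 5.86 and 6.98 in wild type. The groups did not overlap, although the knockout replicates were 1.60 apart. The difference was -1.70 ± 0.63 (SE, n = 2 arrays each), or 3.26-fold lower, and ranged from -2.51 without knockout replicate 2 to -0.90 without knockout replicate 1. Pax5, which keeps B cells committed, read 5.85 and 7.06 in the knockout and 5.37 and 6.66 in wild type. Its groups overlapped, and within each genotype replicate 2 was higher by more than the genotypes differed. The difference was +0.44 ± 0.59 (SE, n = 2 arrays each; 95% interval -0.97 to 1.85). It turned to -0.16 without knockout replicate 2 and to -0.21 without wild type replicate 1, so these arrays do not settle a direction for Pax5.

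The receptor signalling pair and CD20 followed. Cd79a read 6.99 and 6.06 in the knockout and 7.39 and 7.05 in wild type. The groups were separated by less than 0.1, and the difference of -0.70 ± 0.44 (SE, n = 2 arrays each) had an interval from -1.75 to 0.35. It was -1.16 without knockout replicate 1 and -0.24 without knockout replicate 2. Cd79b read 7.13 and 7.91 in the knockout and 8.49 and 8.61 in wild type. The wild type replicates were close together and both knockout arrays were lower, the difference being -1.03 ± 0.41 (SE, n = 2 arrays each), or 2.04-fold lower. Without knockout replicate 1 that difference was -0.64.

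Ms4a1, the last gene in the order, read 4.34 and 4.80 in the knockout and 6.44 and 6.70 in wild type. Both pairs of replicates were tight relative to the gap between them. The difference was -2.00 ± 0.38 (SE, n = 2 arrays each; 95% interval -2.90 to -1.10), a 4.01-fold lower level, and Ms4a1 ranked 12 of 19938 genes by unadjusted p (0.00125, limma). With 1 array left out it stayed between -2.24 and -1.77, the narrowest such range among the 9. The most negative differences were those of Vpreb1 and Ms4a1, the first and last genes as listed. The listed order does not date when each gene is switched on, since Ebf1, an early determinant, stands in its middle.

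**Figure D2:**
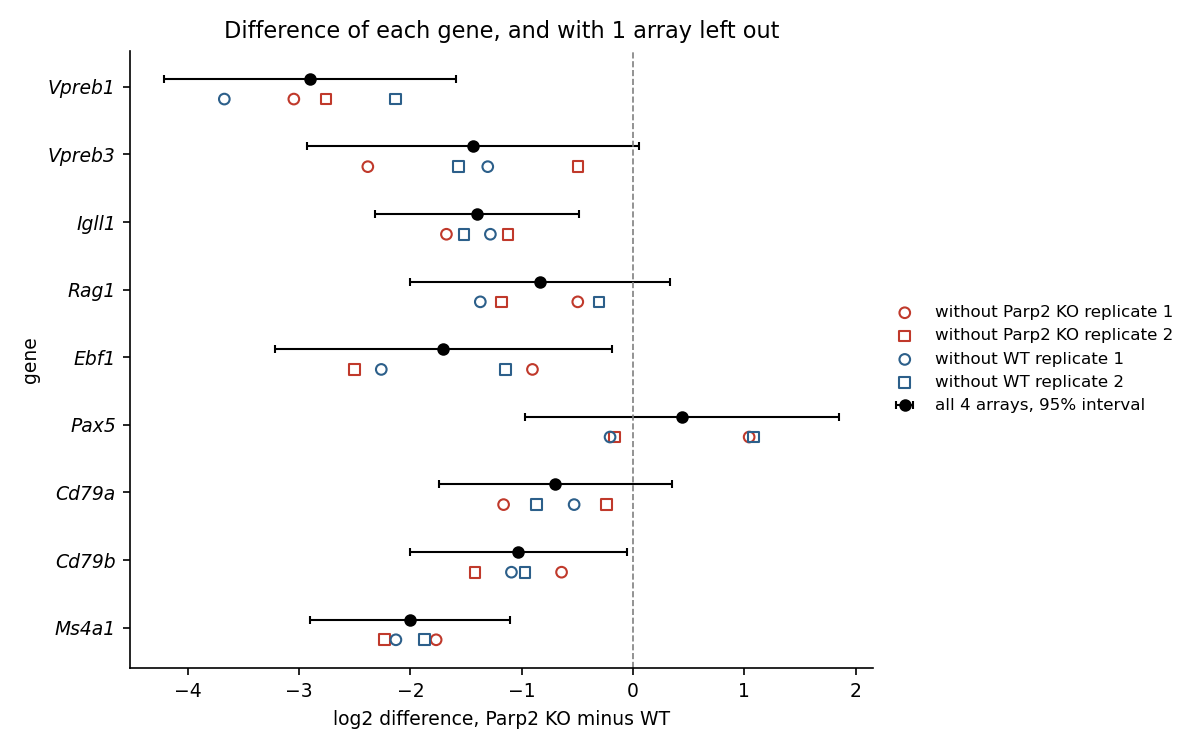
Log2 difference, knockout minus wild type, of each gene (y axis), with black points and 95% limma intervals from all 4 arrays and open symbols for the difference with 1 array left out. Vpreb1, Igll1, Ebf1, Cd79b and Ms4a1 have intervals below 0, and the open symbols of Pax5 fall on both sides of 0.

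Other genes of the B cell programme were then counted in a list of 50, of which 45 were analysed. The other 5 were not analysed here, among them Igkc and Iglc1, which share probe sets with other genes. Of the 45, 34 had a lower mean in the knockout (75.6%), 16 lay below wild type on both arrays (9.62% of all genes), 1 lay above (16.4% of all genes), and 0 passed limma after adjustment. An unadjusted p under 0.05 was reached by 4, all lower, against 1.76% of all genes. The median difference was -0.39, closer to 0 than that of the 9 genes.

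Genes of B cell receptor signalling were lower in 9 of 9, with a median of -0.55, and 6 of the 9 lay below wild type on both arrays, against 9.62% of all genes. Pik3ap1, an adaptor that brings in PI3 kinase, read 5.95 and 6.67 in the knockout and 7.70 and 7.35 in wild type, a difference of -1.21. Blnk, the adaptor linking the kinase SYK to its effectors, read 5.59 and 5.60 in the knockout and 6.17 and 7.07 in wild type, a difference of -1.03. Syk itself differed by -0.95, Il7r, the interleukin 7 receptor of B cell precursors, by -0.55 with overlapping groups, and Btk by -0.37. Several of these genes also act in myeloid cells.

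Among 13 transcription factors 12 had a lower mean, with a median of -0.44, and 5 lay below wild type on both arrays, against 9.62% of all genes. Spi1, which encodes PU.1 and is used by myeloid as well as B cells, read 7.93 and 6.05 in the knockout and 9.51 and 8.31 in wild type, a difference of -1.92. Irf4 (-0.78), Irf8 (-0.64) and Ikzf3 (-0.63) were the next by p, each without overlap. Tcf3, which encodes the E2A proteins, differed by -0.0108, and Foxo1 by -0.0035, both with overlapping groups.

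Genes of the mature B cell surface and of antigen presentation were mixed, with 9 of 15 lower, a median of -0.23 and 2 below wild type on both arrays, a share near the 9.62% of all genes. Cd72, a B cell coreceptor, read 4.92 and 4.81 in the knockout and 5.75 and 7.42 in wild type, a difference of -1.72. Fcrla, an Fc receptor-like protein of B cells, was at -0.93 without overlap. Ly86 (-1.37), Cd37 (-0.68) and Cd74 (-0.66) had lower means with overlapping groups. Others lay near 0 with overlapping groups, among them Cd22 (+0.13), Cr2 (-0.17), Fcer2a (+0.12) and Cxcr5 (+0.11). Of 5 immunoglobulin and plasma cell genes 2 were lower, with a median of +0.02. Mzb1, an endoplasmic reticulum protein of B lineage cells, was at -1.12, and Sdc1 at +0.44 was the 1 gene above wild type on both arrays. Ighm had 3 probe sets, and their differences were -0.25, +0.63 and -0.69.

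**Figure D3:**
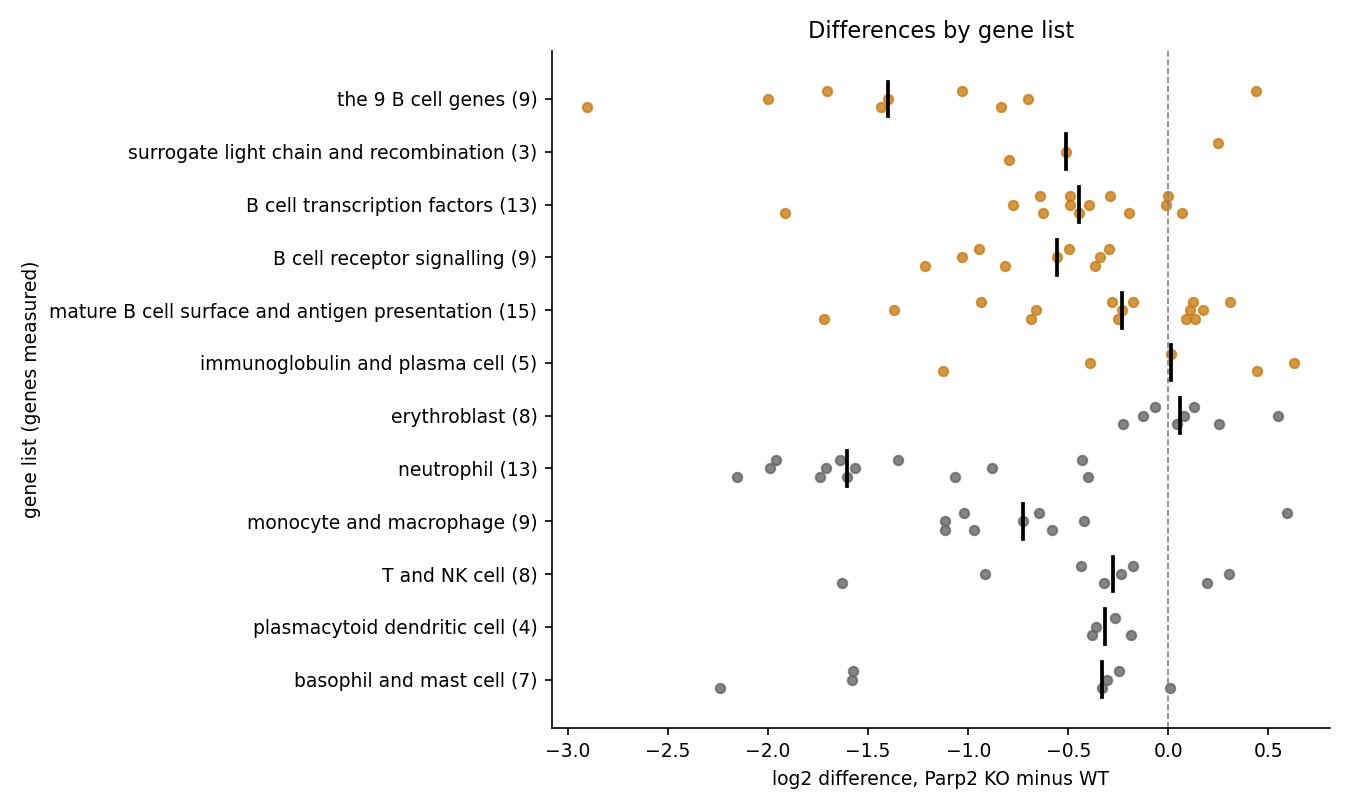
Log2 difference, knockout minus wild type, of each measured gene by list, B cell lists in orange and other marker lists in grey, with a black bar at the median. Medians run from -1.60 for neutrophil markers and -1.40 for the 9 B cell genes to +0.06 for erythroblast markers.

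Markers of other white blood cells also had mostly lower means in the knockout, although 0 of them passed limma after adjustment. Their part in the result was not tested. Over all genes, 41.5% had a lower mean, 9.62% lay below wild type on both arrays and 16.4% lay above. Of 13 neutrophil markers 13 were lower and 11 did not overlap, with a median of -1.60. Of 9 monocyte and macrophage markers 8 were lower and 4 did not overlap, with a median of -0.73. Of 7 basophil and mast cell markers 6 were lower, with 4 not overlapping and a median of -0.33, and the basophil protease Mcpt8 at -2.24. The T and NK cell list had 6 of 8 lower and a median of -0.28, with 2 genes below and 1 above wild type. The plasmacytoid dendritic cell list had 4 of 4 lower, 0 of them without overlap, and a median of -0.32. Of the defining neutrophil markers, S100a8 and S100a9 read 12.65 to 12.87 on the knockout arrays and 13.09 to 13.25 on the wild type arrays. They had the smallest differences of the 13 (-0.40 and -0.43), and Mmp9 had the largest (-2.15).

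The order of the arrays was not the same for each list. The mean of the 9 B cell genes was 5.93 and 6.05 on knockout replicates 1 and 2, and 7.03 and 7.53 on wild type replicates 1 and 2. Wild type replicate 2 was thus the highest array for these 9 genes. For the wider B cell list the means were 6.06 and 6.03 on the knockout arrays and 6.52 and 6.42 on the wild type arrays, with wild type replicate 1 the highest. For neutrophil markers the means were 9.68 and 8.94 on the knockout arrays and 11.11 and 10.36 on the wild type arrays, with wild type replicate 1 the highest and knockout replicate 2 the lowest. The means of the 9 B cell genes were 0.12 apart on the knockout arrays, where the neutrophil means were 0.74 apart. The small gap hides members that went opposite ways, since 5 of the 9 were higher and 4 lower on knockout replicate 2 than on knockout replicate 1. For erythroblast markers the means were 10.65 and 10.98 in the knockout and 10.33 and 11.14 in wild type, so that the knockout arrays lay between the wild type arrays.

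**Figure D4:**
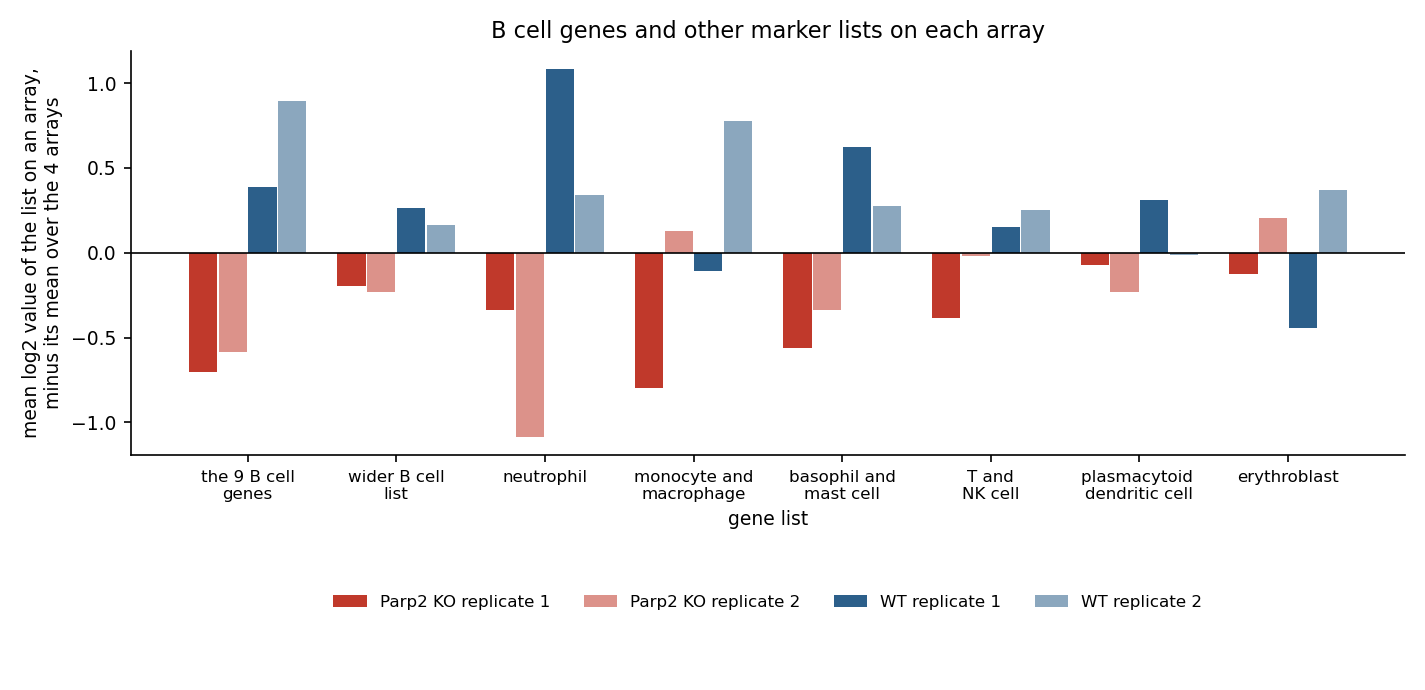
Mean log2 value of each gene list on each array minus its mean over the 4 arrays (y axis), knockout in red and wild type in blue, dark for replicate 1 and pale for replicate 2. Both red bars lie below both blue bars for B cell, neutrophil, basophil and mast cell, T and NK cell and, by a narrow margin, plasmacytoid dendritic cell lists, and not for monocyte and macrophage or erythroblast markers.

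The genes outside all lists whose pattern came closest to the mean pattern of the 9 genes were found by Euclidean distance over the 4 arrays, after subtracting each gene's own mean. They were Gimap3, a GTPase gene of lymphocytes (distance 0.0678), 9030619P08Rik (0.101), Oser1 (0.187), Zc3hc1 (0.289) and Atp8b4 (0.294). Gimap3 read 3.70 and 3.76 in the knockout and 4.81 and 5.33 in wild type, each below the median probe set mean of 5.357. Of the 9 genes themselves, Cd79b was nearest to the mean pattern (0.596) and Pax5 farthest (1.97). Ranked by distance among all genes, Cd79b, Igll1, Rag1 and Ms4a1 stood at 102 to 325, and Cd79a and Ebf1 at 1729 and 2617. Vpreb3, Vpreb1 and Pax5 stood at 9145, 15846 and 17900. The values were not scaled, so the distance reflects the size of a difference as well as its direction. Vpreb1 had both knockout arrays below both wild type arrays, like the mean pattern. Its difference was larger (-2.90, against -1.29 for the mean of the 9). The mean pattern also includes the 9 genes ranked against it. With only 4 arrays many genes can share such a pattern.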

How the data were processed

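RNA from 4 samples, 2 knockout and 2 wild type, was measured on arrays. The deposited table, made by the authors, holds log2 values of 35511 probe sets. RMA, limma and R 3.0.2 are named in the submitters' processing notes, without their roles, and the values were used as deposited. RMA summaries compress differences of dim probe sets. Samples were grouped by their titles. Platform annotation gave 1 symbol to 21789 probe sets and several to 1621. Knockout minus wild type was tested with limma 3.58.1 in R 4.3.3 over the 23410 annotated probe sets (2 residual and 4.77 prior degrees of freedom), with Benjamini-Hochberg adjustment at 0.05; the script was tested on simulated data. An exact permutation test of 2 against 2 cannot go below p = 0.333 and was not used. No label ties the arrays to separate animals, so the p-values reflect variation among these 4 samples alone, part of which may be technical. Titles open with 1 and 2 for wild type and 3 and 4 for knockout; any processing order they mark and the genotype cannot be told apart. The number of arrays limits the precision. The genes and lists were chosen with earlier results of these data known. All 9 genes are named, with 2 to 4 members of lowest p per wider group, members a description needs, and the 5 genes nearest in pattern. Alternatives were a replicate block, each array left out, centring, repeated quantile normalisation, brighter probe sets, other moderation, array weights, all rows, other thresholds and means over a gene's probe sets. Some listed genes are not reported here.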

Additional observations from a re-analysis of the deposited data

How the results depend on the processing

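Of the 9 genes, 8 kept a negative difference in all 12 alternatives run. The replicate block, brighter probe sets, other moderation, array weights, all rows and means over probe sets returned the same gene differences as the main fit. With 2 arrays per group and 1 probe set per gene they could not do otherwise, so this is no support. Only leaving out an array, centring and repeated quantile normalisation changed the differences. For the 7 genes whose groups did not overlap, leaving out 1 array could not change the sign. Pax5 ranged from -0.21 to +1.08 with 1 array left out, and was negative (-0.16 and -0.21) when knockout replicate 2 or wild type replicate 1 was dropped. The median of the 9 genes ranged from -1.31 to -1.15 with 1 array left out, and was -1.47 with arrays centred on their medians and -1.35 after repeated quantile normalisation. The median of the wider B cell list ranged from -0.40 to -0.29 with 1 array left out. It was -0.47 with centring, -0.37 after repeated quantile normalisation and -0.44 among the brighter probe sets. That filter used the mean over the 4 arrays, and all 9 genes passed it. Vpreb1, Rag1, Ebf1 and Ms4a1 had knockout means below its cutoff of 5.357 and passed through their wild type values. The count of probe sets past the limma test (0) ranged from 0 to 62 with 1 array left out, with 5 when wild type replicate 1 was dropped and 62 when wild type replicate 2 was; these fits hold 1 wild type array, assumed to vary like the knockout pair, and 1 SE of 0.737 for all probe sets. Trended and robust moderation gave 8 and an unadjusted p under 0.05 gave 486; the cause was not tested. No label says that the replicate numbers pair the arrays, and only 2 pairs share a number; the differences between numbers correlated at 0.468 between the genotypes over all annotated probe sets. A fit with a replicate block called 274 probe sets, among them Vpreb1, Vpreb3, Igll1, Ebf1 and Ms4a1 with limma adjusted p from 2.86e-09 to 0.0483, from a single residual degree of freedom and 1 SE of 0.406 for every probe set. Signal over background is not given in the table, so that low values could not be judged as detected or not.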
